A study of Caenorhabditis elegans with 9 samples.

Results

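Cytochrome P450 genes were followed in whole *Caenorhabditis elegans* hermaphrodites of 3 genotypes in the DAF-7/TGFβ pathway. The genes were taken as the entries of the deposited expression table whose name is a single *cyp* symbol made of a family number, a subfamily letter and a gene number. This rule found 75 genes among 40313 entries. The genotypes were *daf-1(m40)* mutants, which carry a mutation in the TGFβ type I receptor, double mutants that carry *daf-1(m40)* together with *daf-3(mgDf90)* and so also lack a co-SMAD gene, and N2, the wild-type strain. The double mutants were made by crossing, and a *daf-3* single mutant was not analysed here. Each genotype had 3 libraries (replicates 1 to 3, which are also the batches b1 to b3), each made from poly(A)+ RNA of a pooled population. All populations developed at 16 °C until L4 and spent the following 25 h, by the sample labels, at 25 °C. Both mutant genotypes thus share the *daf-1* allele, and all 3 genotypes share the shift in temperature.

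Cytochrome P450 enzymes hold a heme and use it to insert 1 oxygen atom into a lipid, a steroid or a foreign chemical. Most sit in the membrane of the endoplasmic reticulum and receive electrons from the P450 reductase EMB-8, while a few work in mitochondria. In *C. elegans* many of them are made in the intestine, where members of the CYP35 family are induced by foreign chemicals. The DAF-7 pathway itself is tied to a P450: DAF-9, which lies downstream of the pathway in dauer formation, makes the dafachronic acids that bind the nuclear receptor DAF-12. When the receptors DAF-1 and DAF-4 are active, DAF-8 and DAF-14 hold back DAF-3, so that loss of *daf-1* leaves DAF-3 active and loss of both genes removes it.

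The values are FPKM (fragments scaled to the length of the transcript and to the mapped fragments of the library), which the authors computed in each library, and levels are given in this unit throughout. Differences are log2 fold changes of FPKM + 0.25 from limma, which understates the change of weakly expressed genes. A gene was called when it differed at least 2-fold and its p, adjusted by Benjamini-Hochberg across every tested entry, was below 0.05. The study set aside replicate 3 of the double mutants as an outlier, so each comparison is given first with 8 libraries (n = 3 *daf-1*, n = 2 double mutants, n = 3 N2) and then with all 9. As a check of the labels, *daf-3* was measured at 19.9, 22.3 and 20.6 FPKM in *daf-1* mutants, at 0, 0.0147 and 0 FPKM in the double mutants and at 19.2, 18.8 and 22.5 FPKM in N2. Only the double mutants lacked it. Depth in reads per gene was not used here, and p-values measure the spread between these libraries.

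P450 transcripts were a small part of every library. Their FPKM sum was 309 ± 14.9 in *daf-1* mutants, 297 ± 15.3 in the double mutants and 294 ± 15.7 in N2 (SD, n = 3 each), or 0.0292 to 0.0403% of the library total. Most of the 75 genes were weakly expressed: 8 had a mean of at least 10 FPKM over the 9 libraries, 30 had a mean of 1 to 10, 4 of 0.5 to 1 and 33 below 0.5. All 75 were above 0 in at least 1 library, and 59 in all 9. The test was limited to entries at or above 0.5 FPKM in 2 or more libraries, a limit that 44 of the 75 genes met. Of the 31 that were not tested, 29 stayed below 0.5 FPKM in every library, and the highest value of any was 0.656 FPKM. By the Ensembl annotation of WBcel235, in which 70 of the 75 symbols were found, 39 of those 70 lie on chromosome V, 11 on II, 7 on X, 6 each on III and IV, and 1 on I.

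With 8 libraries, 2 of the 44 tested P450 genes differed between *daf-1* mutants and N2, against 7.22% of all entries tested. *cyp-35A5*, a member of the inducible CYP35A subfamily, was higher in *daf-1* mutants, and *cyp-13B1* was lower. The background in each direction was 6.27% higher and 0.953% lower. Between *daf-1* mutants and the double mutants 9 of 44 differed, against a background of 12.7%, and all 9 were higher in *daf-1* mutants (background 11.2% higher, 1.43% lower). They were *cyp-13A10*, *cyp-13B1*, *cyp-14A2*, *cyp-23A1*, *cyp-25A1*, *cyp-32B1*, *cyp-35A5*, *cyp-35B1* and *cyp-42A1*. Between the double mutants and N2 6 of 44 differed, against a background of 8.9%, and all 6 were lower in the double mutants (background 3.56% higher, 5.34% lower). These were *cyp-13A10*, *cyp-13B1*, *cyp-14A2*, *cyp-25A1*, *cyp-35B1* and *cyp-42A1*. The last 2 comparisons share the double mutant libraries, so their calls are not independent of each other.

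Many of these calls depended on leaving out replicate 3 of the double mutants. With all 9 libraries, 1 gene was called between *daf-1* mutants and N2 (*cyp-35A5*, higher, background 4.61% in all, 3.97% higher and 0.64% lower). Between *daf-1* mutants and the double mutants 4 were called, all higher in *daf-1* mutants (*cyp-14A2*, *cyp-25A1*, *cyp-35A5* and *cyp-35B1*, background 1.17% in all, 0.64% higher and 0.532% lower). Between the double mutants and N2 4 were called, with *cyp-14A2*, *cyp-25A1* and *cyp-35B1* lower and *cyp-33C4* higher in the double mutants (background 2.84% in all, 2.35% higher and 0.489% lower). *cyp-14A2*, *cyp-25A1*, *cyp-35A5* and *cyp-35B1* were called higher in *daf-1* mutants than in the double mutants with 8 and with 9 libraries, each with and without the replicate number as a block. The same held for *cyp-14A2*, *cyp-25A1* and *cyp-35B1* between the double mutants and N2, and for *cyp-35A5* between *daf-1* mutants and N2. With 8 libraries and the block, 2, 9 and 5 P450 genes were called in *daf-1* mutants against N2, *daf-1* mutants against the double mutants and the double mutants against N2 (backgrounds 8.27%, 10.8% and 8.22%), and with 9 libraries and the block 1, 5 and 5 (backgrounds 5.69%, 1.47% and 3.12%).

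The tested P450 genes had differences in both directions. With 8 libraries, 28 of the 44 had a positive and 16 a negative log2 fold change of *daf-1* mutants over N2, 26 and 18 had these signs for *daf-1* mutants over the double mutants, and 21 and 23 for the double mutants over N2. The median log2 fold change of the 44 genes was 0.19 for *daf-1* mutants over N2, 0.13 for *daf-1* mutants over the double mutants and −0.11 for the double mutants over N2, beside medians of 0.02, 0.00 and 0.02 over all entries tested. Quantile normalization turned these medians to −0.17, −0.24 and 0.01. It called 4 P450 genes between *daf-1* mutants and N2, all lower in *daf-1* mutants. Against the double mutants it called 5 higher and 3 lower in *daf-1* mutants. Of the 13751 entries tested, it called 892 against N2, 63.7% of them higher in *daf-1* mutants. Against the double mutants it called 1412 entries, 65.4% of them higher in *daf-1* mutants. With 8 libraries, all single values of *daf-1* mutants lay above those of N2 for 12 of 44 genes (background 22.2%) and below them for 7 (background 29.2%). Against the double mutants, 18 genes lay above (background 30.3%) and 9 below (background 33.2%). For the double mutants against N2 the counts were 10 above (background 20.6%) and 19 below (background 22.3%). With replicate 3 of the double mutants included, *daf-1* mutants lay above the double mutants for 12 genes and below for 4. The double mutants then lay above N2 for 5 genes and below for 14. Backgrounds with 9 libraries are not given here, so these counts show only how the P450 genes moved.

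**Figure D1:**
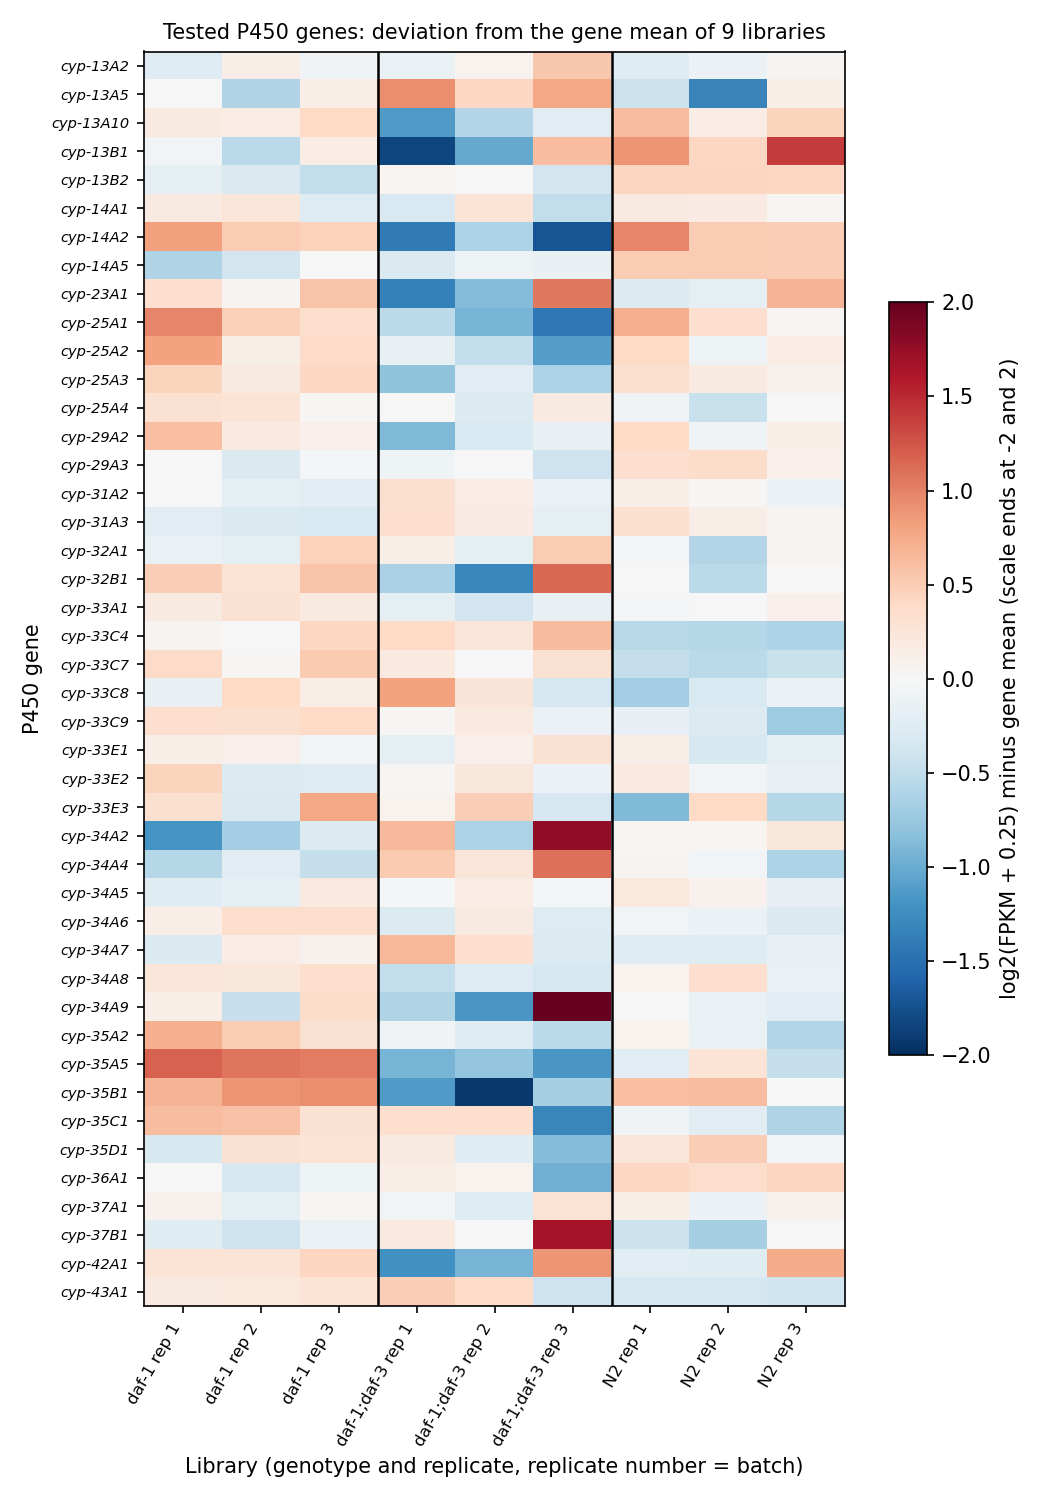
Each row is 1 of the 44 tested P450 genes and each column 1 library, grouped as *daf-1* mutants, *daf-1;daf-3* double mutants and N2, and the colour is log2(FPKM + 0.25) minus the gene's mean over the 9 libraries. *cyp-35A5* stands high in the 3 *daf-1* libraries, *cyp-14A2* and *cyp-35B1* stand low in the 3 double mutant libraries, and replicate 3 of the double mutants departs from replicates 1 and 2 in both directions.

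The CYP35 family held the largest differences between *daf-1* mutants and the double mutants among the tested P450 genes. *cyp-35A5* (chromosome V, 3936326 to 3938597) was measured at 3.67, 3.38 and 3.26 FPKM in *daf-1* mutants, at 0.649, 0.762 and 0.515 in the double mutants and at 1.24, 1.82 and 0.985 in N2. The 3 genotypes did not overlap, with *daf-1* mutants highest and double mutants lowest. It was 2.36-fold higher in *daf-1* mutants than in N2 (log2 fold change 1.24, SE 0.24, adjusted p = 0.0103) and 3.86-fold higher than in the double mutants (1.95, SE 0.27, adjusted p = 0.00389). The double mutants lay below N2 by a log2 fold change of −0.71 (SE 0.27), which was not called (adjusted p = 0.107). The call between *daf-1* mutants and N2 was lost with a pseudocount of 1 (0.93) and with quantile normalization (0.86).

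*cyp-35B1*, also known as *dod-13* and listed among the genes downstream of the FOXO factor DAF-16, lies next to *cyp-35A5* on the same strand, 434 bases away (V, 3939032 to 3941237). It was measured at 3.52, 4.07 and 4.22 FPKM in *daf-1* mutants, at 0.825, 0.364 and 1.24 in the double mutants and at 3.33, 3.35 and 2.12 in N2. All double mutant libraries were lower than every other library, replicate 3 included. The difference was 5.14-fold between *daf-1* mutants and the double mutants (log2 fold change 2.36, SE 0.30, adjusted p = 0.00336) and −1.94 on the log2 scale between the double mutants and N2 (SE 0.30, adjusted p = 0.00433). *daf-1* mutants lay above N2 without overlap, but by a log2 fold change of 0.42 that was not called (SE 0.27, adjusted p = 0.253). The neighbours that follow, *cyp-35B2* and *cyp-35B3*, were below 0.5 FPKM in every library. Within batches, *cyp-35A5* exceeded the double mutants in *daf-1* mutants by log2 differences of 2.12, 1.84 and 2.198 in batches 1, 2 and 3, and *cyp-35B1* by 1.81, 2.82 and 1.59.

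*cyp-35A2*, the most abundant CYP35 gene, was measured at 24.1, 20.8 and 18.1 FPKM in *daf-1* mutants, 13.9, 12.2 and 9.998 in the double mutants and 15.5, 13.3 and 9.71 in N2. *daf-1* mutants were highest and the other genotypes overlapped. The difference stayed under 2-fold, at log2 fold changes of 0.72 over N2 (adjusted p = 0.0231) and 0.67 over the double mutants (adjusted p = 0.0323). *cyp-35C1*, another gene of this inducible family, was measured at 17.3, 17.0 and 13.9 FPKM in *daf-1* mutants, 14.2, 14.3 and 4.41 in the double mutants and 10.7, 9.71 and 7.36 in N2. It was higher in *daf-1* mutants than in N2 by 0.79 (adjusted p = 0.0109), below 2-fold, and the adjusted p became 0.203 with 9 libraries. *cyp-35D1*, which metabolises the anthelmintic thiabendazole, ran between 0.959 and 2.85 FPKM with no call. *cyp-35A1*, *cyp-35A3* and *cyp-35A4* reached at most 0.208, 0.460 and 0.5003 FPKM and were not tested. The CYP35A genes are close relatives in sequence, so reads may have been shared between them.

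*cyp-14A2* (X, 13267562 to 13269686) was the next gene that was low in every double mutant library. It was measured at 1.78, 1.38 and 1.33 FPKM in *daf-1* mutants, at 0.178, 0.489 and 0.0945 in the double mutants and at 2.01, 1.39 and 1.36 in N2. *daf-1* mutants and N2 overlapped, at a log2 fold change of −0.06 with a 95% interval of −0.72 to 0.59. *daf-1* mutants exceeded the double mutants by 1.63 (SE 0.32, adjusted p = 0.00937), and the double mutants differed from N2 by −1.69 (SE 0.32, adjusted p = 0.00986). Without double mutant replicate 1 neither call held (adjusted p = 0.0684 and 0.0521). A pseudocount of 1 also brought both under 2-fold (0.91 and −0.96). Its neighbours *cyp-14A1*, at 0.241 to 0.587 FPKM, and *cyp-14A3*, at 0 to 0.293 FPKM, lay near or below the limit for testing.

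*cyp-25A1* (III, 3832591 to 3834586) was also lowest in the double mutants, at a higher level of expression. It was measured at 10.4, 7.25 and 6.69 FPKM in *daf-1* mutants, 3.51, 2.58 and 1.75 in the double mutants and 8.74, 6.61 and 5.23 in N2. In each genotype replicate 1 was highest and replicate 3 lowest, and the double mutants lay below every other library. The log2 fold change was 1.33 between *daf-1* mutants and the double mutants (SE 0.27, adjusted p = 0.00974) and −1.09 between the double mutants and N2 (SE 0.27, adjusted p = 0.0256). With the replicate number as a block the SE of both fell to 0.14. The call against N2 did not hold without double mutant replicate 2, N2 replicate 1 or N2 replicate 2 (adjusted p = 0.136, 0.0564 and 0.0593) or with a pseudocount of 1 (−0.94), nor did either call under quantile normalization (adjusted p = 0.0549 and 0.0753). The adjacent *cyp-25A2* was measured at 16.4, 10.05 and 12.2 FPKM in *daf-1* mutants, 8.39, 6.50 and 4.21 in the double mutants and 12.3, 8.61 and 10.3 in N2. It was higher in *daf-1* mutants than in the double mutants, but below 2-fold (0.75, adjusted p = 0.0348), and was called with 9 libraries and the block (1.01, adjusted p = 0.0481).

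**Figure D2:**
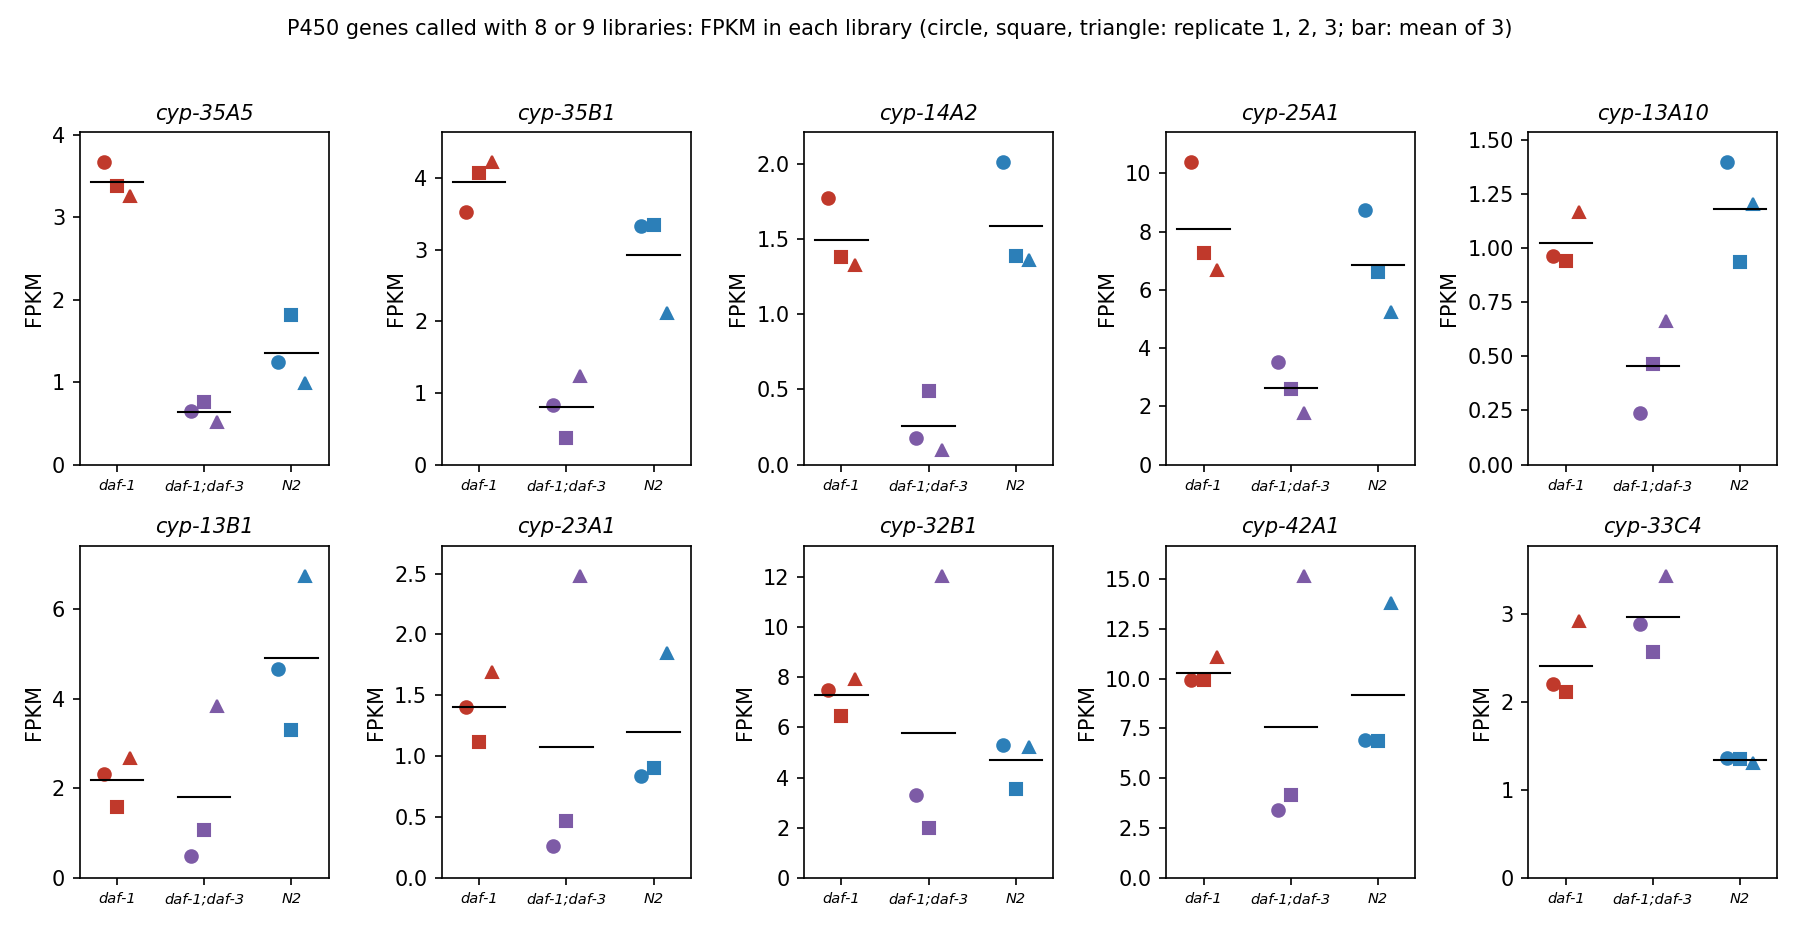
FPKM in each library (linear axes from 0) for the 10 P450 genes called in any comparison with 8 or 9 libraries, with circles, squares and triangles for replicates 1, 2 and 3 and a bar at the mean of 3 in each genotype, *daf-1* mutants on the left, double mutants in the middle and N2 on the right. In the first 5 panels all double mutant libraries lie below the other genotypes, while in *cyp-13B1*, *cyp-23A1*, *cyp-32B1* and *cyp-42A1* the triangle of the double mutants stands apart from its group.

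For *cyp-42A1*, *cyp-32B1*, *cyp-23A1* and *cyp-13B1*, which were also called, the double mutant replicates did not match. *cyp-42A1* was measured at 9.93, 9.91 and 11.1 FPKM in *daf-1* mutants, 3.39, 4.15 and 15.2 in the double mutants and 6.92, 6.85 and 13.8 in N2. Replicates 1 and 2 of the double mutants were the lowest of the 9 libraries and replicate 3 was the highest. With 8 libraries *daf-1* mutants exceeded the double mutants by a log2 fold change of 1.40 (adjusted p = 0.0101) and the double mutants differed from N2 by −1.16 (adjusted p = 0.0263). With 9 libraries the differences were 0.75 (adjusted p = 0.359) and −0.51 (adjusted p = 0.71). The call against N2 was also lost with the block (−0.97, under 2-fold) and without double mutant replicate 1, double mutant replicate 2 or N2 replicate 3 (adjusted p = 0.117 and 0.0712, and a log2 fold change of −0.83), and with replicates 1 and 2 of each genotype only (−0.83). Without double mutant replicate 1 the call against *daf-1* mutants was lost too (adjusted p = 0.0762).

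*cyp-32B1* was measured at 7.48, 6.47 and 7.94 FPKM in *daf-1* mutants, 3.29, 1.997 and 12.05 in the double mutants and 5.29, 3.56 and 5.22 in N2. Its difference between *daf-1* mutants and the double mutants was 1.42 with 8 libraries (SE 0.25, adjusted p = 0.00725) and 0.71 with 9 (adjusted p = 0.398). *cyp-23A1* was measured at 1.40, 1.12 and 1.69 FPKM in *daf-1* mutants, 0.262, 0.470 and 2.48 in the double mutants and 0.840, 0.901 and 1.84 in N2. As for *cyp-32B1*, the double mutants held both the lowest and the highest library. The difference of *cyp-23A1* between *daf-1* mutants and the double mutants was 1.43 (SE 0.36, adjusted p = 0.0191), and 0.71 with 9 libraries (adjusted p = 0.437). Its call was lost without *daf-1* replicate 3 or double mutant replicate 1 (adjusted p = 0.0657 and 0.123), with a pseudocount of 1 (0.81, under 2-fold) and with quantile normalization (0.89, adjusted p = 0.0518).

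*cyp-13B1* was the P450 gene called in all 3 comparisons with 8 libraries. It was measured at 2.31, 1.59 and 2.69 FPKM in *daf-1* mutants, 0.493, 1.06 and 3.85 in the double mutants and 4.66, 3.30 and 6.74 in N2. N2 was above both mutants apart from double mutant replicate 3, which lay above N2 replicate 2. The log2 fold change was −1.05 between *daf-1* mutants and N2 (SE 0.33, adjusted p = 0.0447), 1.28 between *daf-1* mutants and the double mutants (SE 0.37, adjusted p = 0.0282) and −2.33 between the double mutants and N2 (SE 0.37, adjusted p = 0.00456). With 9 libraries none was called (adjusted p = 0.228, 0.497 and 0.169). The call between *daf-1* mutants and N2 was also lost on leaving out any 1 library of either genotype (adjusted p up to 0.134), with pseudocounts of 1 (−0.86, under 2-fold) and 0.1 (adjusted p = 0.0501), with no filter (adjusted p = 0.0731), with median-of-ratios scaling (−0.95, adjusted p = 0.0797) and with replicates 1 and 2 of each genotype only (adjusted p = 0.109). The call between *daf-1* mutants and the double mutants was lost with the block (1.08, adjusted p = 0.0554), without double mutant replicate 1, *daf-1* replicate 1 or *daf-1* replicate 3 (adjusted p = 0.192, 0.0643 and 0.0887), with a pseudocount of 1 (0.85, under 2-fold), with quantile normalization (0.71, adjusted p = 0.113) and with replicates 1 and 2 only (adjusted p = 0.0681).

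*cyp-13A10* was weakly expressed, at 0.963, 0.939 and 1.17 FPKM in *daf-1* mutants, 0.237, 0.463 and 0.661 in the double mutants and 1.40, 0.936 and 1.21 in N2. The double mutants were lowest in all 3 libraries. With 8 libraries the differences were 1.11 between *daf-1* mutants and the double mutants (adjusted p = 0.0224) and −1.27 between the double mutants and N2 (adjusted p = 0.0217), and with 9 they were 0.90 (adjusted p = 0.172) and −1.06 (adjusted p = 0.094). The call against *daf-1* mutants was lost without *daf-1* replicate 2, *daf-1* replicate 3 or double mutant replicate 1 (adjusted p = 0.0512, 0.0753 and 0.14), and that against N2 without double mutant replicate 1 or N2 replicate 1 (adjusted p = 0.104 and 0.053) and with the block (adjusted p = 0.0519). A pseudocount of 1 brought both under 2-fold (0.59 and −0.69), quantile normalization ended the call against *daf-1* mutants (0.57, adjusted p = 0.131), and with replicates 1 and 2 of each genotype only neither held (adjusted p = 0.07 and 0.0737). *cyp-13A5*, by contrast, was measured at 3.61, 2.32 and 3.98 FPKM in *daf-1* mutants, 7.16, 4.94 and 6.36 in the double mutants and 2.63, 1.29 and 3.94 in N2, with all 3 double mutant libraries on top. Its differences with 8 libraries were −0.84 between *daf-1* mutants and the double mutants (adjusted p = 0.139) and 1.23 between the double mutants and N2 (adjusted p = 0.0781), neither of which was called. With the block both were called, at −1.07 (adjusted p = 0.0179) and 1.47 (adjusted p = 0.00945). Quantile normalization also gave a call against *daf-1* mutants (−1.21, adjusted p = 0.0488), and the difference from N2 was called without N2 replicate 3 (1.56, adjusted p = 0.0354) and with 9 libraries and the block (1.26, adjusted p = 0.0275).

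**Figure D3:**
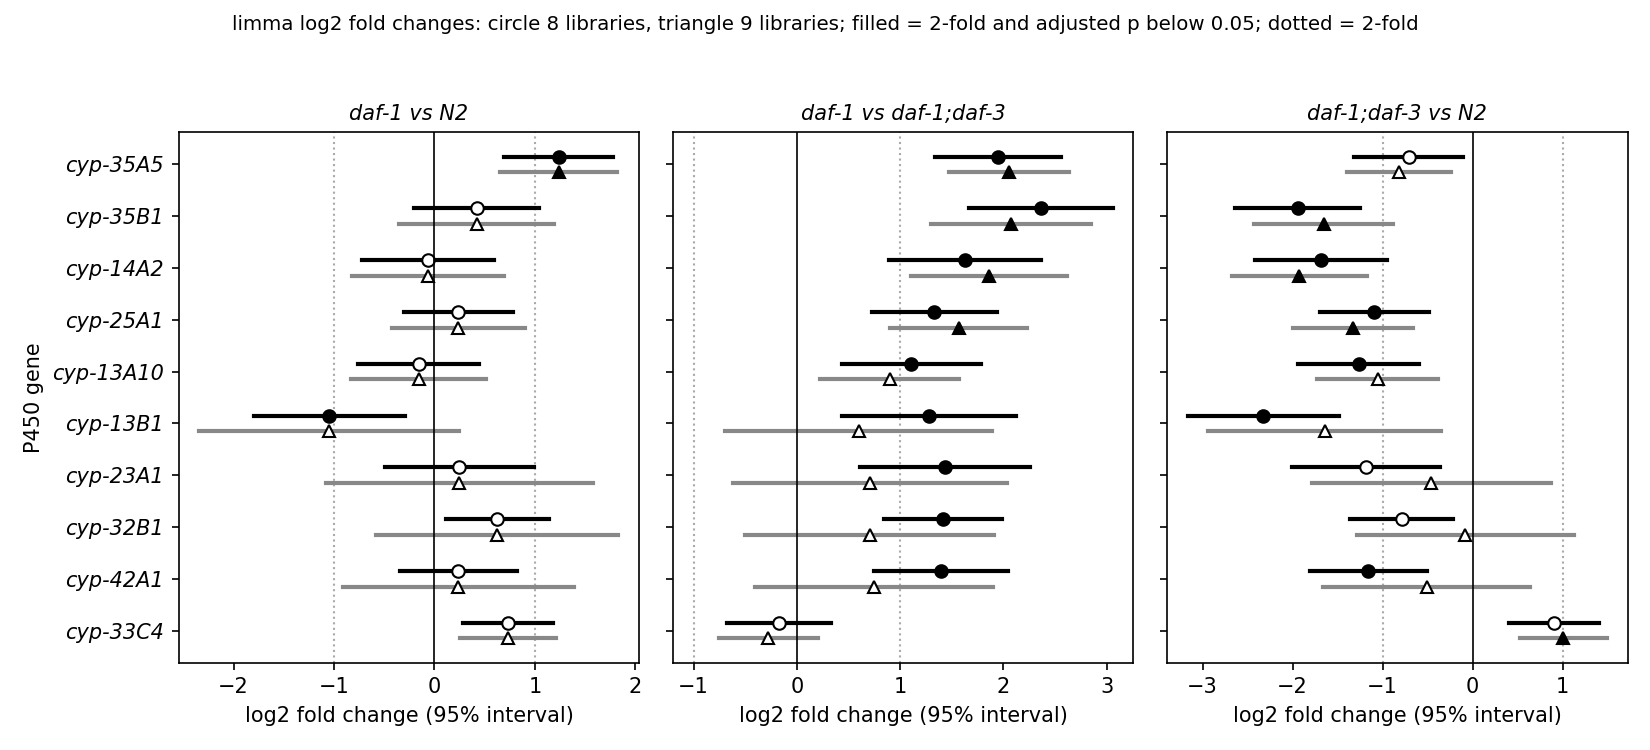
Points are limma log2 fold changes of FPKM + 0.25 and lines their 95% intervals for the 10 called P450 genes in the 3 comparisons, with circles for 8 libraries and triangles for 9, filled where the gene was called and dotted lines at 2-fold. The triangles of *cyp-13B1*, *cyp-23A1*, *cyp-32B1* and *cyp-42A1* have wide intervals that reach 0 in the comparison with the double mutants, whereas those of *cyp-14A2*, *cyp-25A1*, *cyp-35A5* and *cyp-35B1* stay filled.

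The most abundant P450 genes were *cyp-31A2* and *cyp-31A3*, whose products act in making the lipids of the eggshell. *cyp-31A2* was measured at 50.5, 44.6 and 43.9 FPKM in *daf-1* mutants, 63.1, 56.1 and 46.3 in the double mutants and 55.3, 51.5 and 46.8 in N2. *cyp-31A3* was measured at 30.6, 29.3 and 29.03 FPKM in *daf-1* mutants, 45.1, 40.01 and 31.5 in the double mutants and 45.0, 39.3 and 37.2 in N2. In *cyp-31A3* the *daf-1* libraries were lower than all others, by log2 fold changes of −0.44 against N2 (adjusted p = 0.014) and −0.52 against the double mutants (adjusted p = 0.0101), both below 2-fold. With 9 libraries the adjusted p was 0.0729 and 0.195. Markers of the germline were also low in *daf-1* mutants, apart from an overlap with double mutant replicate 3: the 4 with an entry of their own summed to 839 to 931 FPKM in *daf-1* mutants, 889 to 1305 in the double mutants and 1035 to 1287 in N2, with median log2 fold changes of −0.47 against N2 and −0.49 against the double mutants with 8 libraries. The 8 oocyte and embryo markers had medians of −0.28 and −0.44. None of these 12 markers was called by limma between *daf-1* mutants and either other genotype with 8 libraries. At an unadjusted p below 0.05, all 4 germline markers differed in both comparisons. So did 5 oocyte and embryo markers against N2 and 7 against the double mutants. Of the 44 tested P450 genes, 14 and 19 passed the same limit in these comparisons. The share over all entries tested is not given here, so these counts do not set the markers apart. The part of these markers in the difference of *cyp-31A3* was not tested. The pair is nearly identical in sequence, so the split of reads between them is uncertain. Together they held 23.7 to 25.1% of the P450 FPKM sum in *daf-1* mutants, 25.8 to 34.9% in the double mutants and 29.3 to 32.1% in N2. Without the pair the sum was 233 ± 11.3 in *daf-1* mutants, 203 ± 19.6 in the double mutants and 203 ± 9.70 in N2 (SD, n = 3 each).

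Among the next most abundant genes, *cyp-36A1*, which acts in the behavioural response to oxygen, was lowest in *daf-1* mutants at 17.4, 13.8 and 16.5 FPKM with 8 libraries, against 19.1 and 18.4 in double mutant replicates 1 and 2 and 23.3, 22.4 and 23.8 in N2. The difference from N2 was −0.54 (SE 0.10, adjusted p = 0.0105), below 2-fold, and the adjusted p was 0.187 with 9 libraries, where double mutant replicate 3 stood at 8.84. *cyp-43A1* had 14.2, 14.6 and 15.1 FPKM in *daf-1* mutants, 17.7, 16.4 and 9.36 in the double mutants and 9.79, 9.78 and 9.41 in N2. N2 was lowest but for double mutant replicate 3, which lay below it. With 8 libraries *cyp-43A1* was higher than in N2 by 0.59 in *daf-1* mutants (adjusted p = 0.00464) and by 0.80 in the double mutants (adjusted p = 0.0019), neither reaching 2-fold, and with 9 by 0.59 (adjusted p = 0.107) and 0.52 (adjusted p = 0.265). *cyp-37A1* ran between 10.6 and 15.6 FPKM with overlapping genotypes.

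*cyp-33C4*, *cyp-33C7*, *cyp-33C8* and *cyp-33C9*, the 4 tested genes of the CYP33C subfamily, had positive log2 fold changes over N2 in both mutants, with 8 and 9 libraries and under both other scalings. *cyp-33C4* was measured at 2.206, 2.11 and 2.92 FPKM in *daf-1* mutants, 2.89, 2.57 and 3.43 in the double mutants and 1.36, 1.35 and 1.30 in N2. Every mutant library was above every N2 library. Its difference between the double mutants and N2 was 0.91 with 8 libraries (adjusted p = 0.0251), just short of 2-fold, and 1.01 with 9 (adjusted p = 0.0309). In *daf-1* mutants *cyp-33C4*, *cyp-33C7* and *cyp-33C9* exceeded N2 by 0.73, 0.79 and 0.74 (adjusted p = 0.0284, 0.0183 and 0.0147), all below 2-fold, and *cyp-33C8* by 0.50 (adjusted p = 0.103). The remaining 5 CYP33C genes were not tested.

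Several genes with a known role showed no call. *cyp-33E2* and *cyp-29A3*, which take part in making eicosanoids, ran between 2.54 and 4.31 FPKM and between 1.22 and 2.27 FPKM, with differences of −0.02 and −0.37 between *daf-1* mutants and N2. *cyp-14A5* was lower in both mutants than in N2, at 2.97, 3.56 and 4.68 FPKM in *daf-1* mutants and 3.74, 4.29 and 4.15 in the double mutants against 6.72, 6.69 and 6.65 in N2. Its differences from N2 were below 2-fold, at −0.82 (adjusted p = 0.016) and −0.71 (adjusted p = 0.0463). *cyp-13A7*, which is induced by rifampicin, and *cyp-13A12*, which acts in the response to a return of oxygen, reached at most 0.147 and 0.153 FPKM and were not tested.

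Another 5 entries join a P450 gene with neighbouring genes, and their single value cannot be divided among them. The entry of *ZK177.4*, the mitochondrial P450 gene *cyp-44A1* and *fzy-1* had a log2 fold change of −0.52 between *daf-1* mutants and N2 (adjusted p = 0.00927), and that of *cyp-31A5*, *nol-9* and *pik-1* one of −0.37 (adjusted p = 0.0159). The entries that hold *cyp-31A1*, *cyp-33C3* with *cyp-33C5*, and *cyp-29A1* had differences between −0.11 and 0.28 in the same comparison. No joined entry reached 2-fold in any comparison.

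Replicate 3 of the double mutants stood apart among the P450 genes in both directions. It was the highest of the 9 libraries in 12 of the 44 tested genes and the lowest in 10. On the log2(FPKM + 0.25) scale it lay at least 2-fold above the mean of replicates 1 and 2 in 7 genes and at least 2-fold below in 2. The study set this library aside on its FPKM values as a whole. Shares over all tested entries are not given here for these counts, so they do not set the P450 genes apart from other genes. The largest gap was that of *cyp-34A9*, also known as *dod-16*, which was measured at 3.47, 2.197 and 4.10 FPKM in *daf-1* mutants, 1.98, 1.26 and 13.9 in the double mutants and 3.15, 2.84 and 2.62 in N2. Batch 3 is 1 library in each genotype, so a change in it that differs between genotypes rests on single libraries whose spread was taken from the others. The tests of batch 3 against batches 1 and 2 and of a batch 3 difference between the double mutants and N2 called 0 of 44 P450 genes in limma with 9 libraries (backgrounds 0.0144% and 0.0216%), with 12 and 11 at an unadjusted p below 0.05. Shares of all entries at that unadjusted limit are not given here. Without *daf-1* replicate 3, 5 genes were called in the batch test. The share of all entries called in that fit is not given here, and the backgrounds above do not apply to it.

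Some genes were shifted in replicate 3 of every genotype. *cyp-13B1*, *cyp-23A1* and *cyp-42A1* were each highest in replicate 3 of *daf-1* mutants, of the double mutants and of N2. *cyp-25A1*, *cyp-35A2* and *cyp-35C1* were each lowest there. The log2 difference between batch 3 and the other batches was 1.15 for *cyp-23A1* (adjusted p = 0.0742), 1.08 for *cyp-13B1* (adjusted p = 0.0823), 1.02 for *cyp-42A1* (adjusted p = 0.0735) and −0.80 for *cyp-35C1* (adjusted p = 0.074), none of which was called. These genes were picked out after their values were seen.

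**Figure D4:**
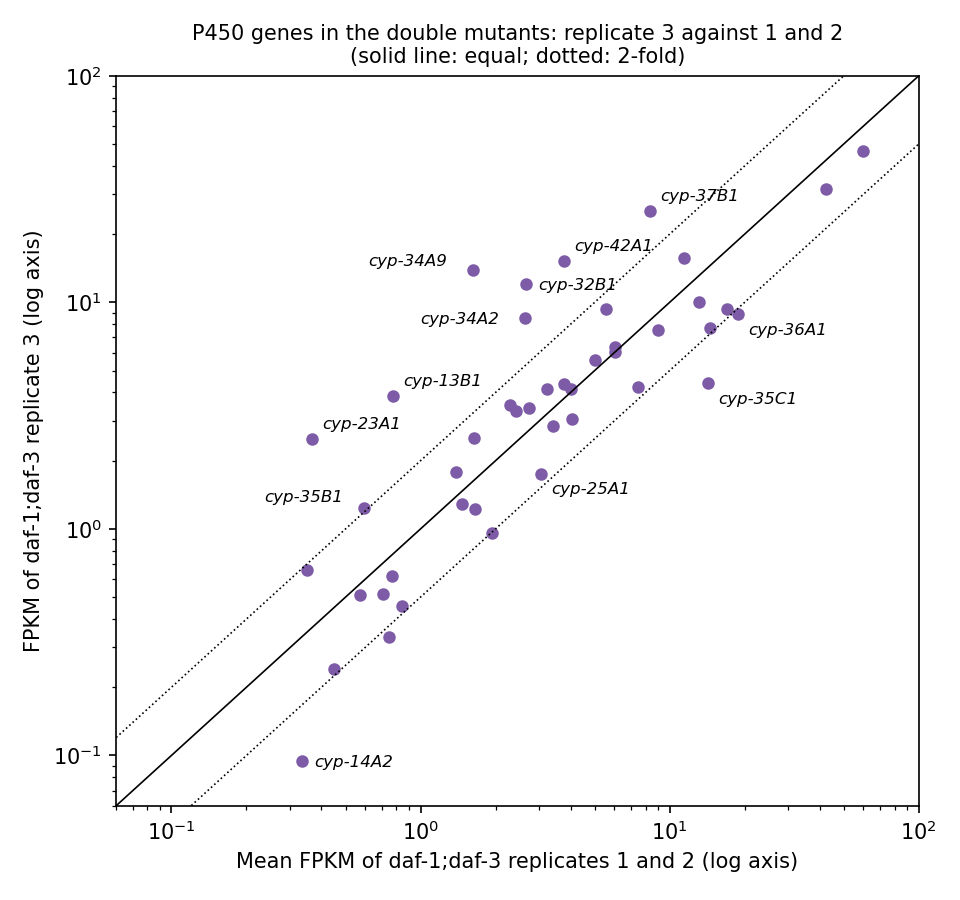
Each point is 1 of the 44 tested P450 genes, with the mean FPKM of double mutant replicates 1 and 2 on the horizontal log axis and FPKM of replicate 3 on the vertical log axis, a solid line where they are equal and dotted lines at 2-fold. *cyp-34A9*, at 13.9 FPKM in replicate 3 against 1.98 and 1.26, lies farthest above the line, and *cyp-35C1* and *cyp-36A1* lie below it.

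Tissue markers moved with some of these values. The 10 measured markers of the molting epidermis summed to 222 to 239 FPKM in *daf-1* mutants, to 60.7, 84.3 and 276 in double mutant replicates 1, 2 and 3 and to 173 to 292 in N2. With 8 libraries 7 of the 10 were called higher in *daf-1* mutants than in the double mutants by limma, and 0 with 9 libraries, where 4 had an unadjusted p below 0.05. Against N2, 4 were called higher in *daf-1* mutants and 4 lower in the double mutants with 8 libraries, and 3 and 0 with 9. Most of each sum came from *noah-1*, *dpy-7* and *lpr-3*, and other epidermal markers differed from it. *dpy-13* was at 7.61 to 14.1 FPKM in *daf-1* mutants, 0.290, 4.98 and 0.734 in the double mutants and 0.588 to 0.966 in N2. *bli-1*, *rol-6* and *sqt-1* were also low in double mutant replicates 1 and 3 and in N2. Replicate 2 of the double mutants was higher in each, with *sqt-1* at 1.01 FPKM against 0.0394 and 0.0734 in replicates 1 and 3. Replicates 1 and 2, the double mutant libraries of the 8-library comparisons, thus differed from each other in these markers. The 9 intestinal markers summed to 3333 to 4282 FPKM in *daf-1* mutants, 2304 to 3675 in the double mutants and 1899 to 2503 in N2. The largest part of that sum was the protease gene *asp-1*, at 2288 to 3158 FPKM in *daf-1* mutants, 1513 to 2364 in the double mutants and 862 to 1374 in N2. The markers did not move together: *cpr-1* was at 249.6 to 299 FPKM in *daf-1* mutants, 173 to 762 in the double mutants and 589 to 659.8 in N2, and *mtl-2* at 22.4 to 23.9, 21.7 to 41.7 and 36.1 to 64.9 FPKM in the same order of genotypes. With 8 libraries 4 intestinal markers were called between *daf-1* mutants and N2, of which 2 were higher and 2 lower in the mutants. With 9 libraries 2 were higher and 1 lower. Between the double mutants and N2, 1 was called lower in the double mutants with 8 libraries and 1 higher with 9. Between *daf-1* mutants and the double mutants 0 of the 9 intestinal markers was called with 8 libraries, and 6 had an unadjusted p below 0.05. Shares of all tested entries at this unadjusted limit are not given here, so such counts do not set these markers apart from other genes. The 4 pharyngeal markers summed to 127 to 174 FPKM in *daf-1* mutants, 52.1 to 196 in the double mutants and 68.5 to 119.3 in N2. With 8 libraries 3 were called higher in *daf-1* mutants than in N2 and 2 higher than in the double mutants. With 9 libraries 0 were called in either comparison. The 6 sperm markers summed to 19.4 to 26.4 FPKM in *daf-1* mutants and 2.42 to 10.8 in N2. In double mutant replicates 1, 2 and 3 their sums were 1.21, 27.9 and 2.64. With 8 libraries 2 sperm markers were called higher in *daf-1* mutants than in N2, and with 9 libraries 0. The 5 yolk genes summed to 12673 to 13423 FPKM in *daf-1* mutants, 11565 to 15712 in the double mutants and 12151 to 15717 in N2. The 5 neuronal markers summed to 361 to 381, 362 to 473 and 318 to 389 FPKM in the same order. With 8 libraries 1 of the neuronal markers was called higher in *daf-1* mutants than in the double mutants, and with 9 libraries 0. The oocyte and embryo markers summed to 7768 to 9013 FPKM in *daf-1* mutants, 8956 to 12281 in the double mutants and 8828 to 10932 in N2. No marker of these lists was at 0 in all libraries. In RNA of whole animals, fewer cells of a type and less RNA per cell cannot be told apart. The part of these markers in the P450 differences was not tested.

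For the proteins that work with P450 enzymes, 5 of a list of 10 genes were tested. *emb-8*, the P450 reductase, was at 107, 88.6 and 90.9 FPKM in *daf-1* mutants, 103, 113 and 97.1 in the double mutants and 98.5, 90.7 and 89.7 in N2, with no call. *daf-9* itself was below 0.5 FPKM in every library and was not tested. *dhs-16*, a dehydrogenase of dafachronic acid synthesis, was the only partner called. It was measured at 1.96, 2.17 and 2.51 FPKM in *daf-1* mutants, 0.404, 0.457 and 2.74 in the double mutants and 1.21, 1.60 and 1.68 in N2. Replicate 3 of the double mutants was again the highest library and replicates 1 and 2 the lowest. With 8 libraries its log2 fold change was 1.85 between *daf-1* mutants and the double mutants and −1.35 between the double mutants and N2, and with 9 libraries it was not called.

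None of the 11 tested regulators of a list of 14 was called by limma in any of the 3 comparisons, with 8 or 9 libraries. With 8 libraries 2, 6 and 5 of them had an unadjusted p below 0.05 in *daf-1* mutants against N2, *daf-1* mutants against the double mutants and the double mutants against N2. The list holds nuclear receptors, the stress factor SKN-1, the aryl hydrocarbon receptor AHR-1 and the oxygen sensor pathway, and its log2 fold changes with 8 libraries ran from −0.27 to 0.20 between *daf-1* mutants and N2, from −0.34 to 0.88 between *daf-1* mutants and the double mutants and from −0.82 to 0.44 between the double mutants and N2. The intestinal factor ELT-2 was at 11.2, 12.1 and 12.3 FPKM in *daf-1* mutants, 7.20, 6.93 and 9.21 in the double mutants and 10.6, 11.2 and 11.3 in N2, lowest in the double mutants without overlap. None of 5 genes of heme transport with an entry of their own was called by limma with 8 or 9 libraries. With 8 libraries 2, 2 and 0 of these had an unadjusted p below 0.05 in the 3 genotype comparisons, in the order above. Between *daf-1* mutants and the double mutants *hrg-1* and *hrg-3* differed by −0.65 and 0.96 (adjusted p = 0.0481 and 0.0283), below 2-fold. With 9 libraries the adjusted p was 0.248 and 0.438. Shares of all tested entries at the unadjusted limit are not given here, for the regulators or the heme genes.

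The annotation overlaps bear on some of the values. Exons of 15 of the 44 tested P450 genes overlap another annotated gene, among them *cyp-14A2* with the non-coding *K09A11.10*, *cyp-23A1* with *B0304.10*, *cyp-35B1* with *K07C6.16*, *cyp-36A1* with *figo-1* and *cyp-43A1* with *C41G11.1*. Whether the reads kept their strand is not given in the sources used here, so reads of a gene and of its antisense partner cannot be told apart. *cyp-25A1* and *cyp-35A5* had no such overlap.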

How the data were processed

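RNA from 9 populations (3 per genotype) was sequenced as paired ends. After trimming (Trim Galore 0.4.0) and alignment to WBcel235 (TopHat2 2.0.12), the authors computed the deposited FPKM values with Cufflinks (2.21 by the submitters' notes), 1 per merged locus and library. FPKM are scaled to each library's total, so a change in abundant transcripts moves all other values.

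Of 40313 entries, 186 without a gene name were left out; 5 entries join a P450 gene to others. Columns of other samples numbered 0. Entries with at least 2 libraries at 0.5 FPKM were tested (13751 with 8 libraries, 13907 with 9) by limma 3.58.1 (R 4.3.3), which fitted log2(FPKM + 0.25) of all genotypes in 1 model with empirical Bayes moderation and a trend of variance. The procedure was tested on simulated data. Read counts were not used here, so counting error is unknown.

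Members and lists were chosen with earlier results of these data known. The genes named are all called P450 genes, the 10 most abundant, those with a known role, joined entries, and listed partners, regulators and heme genes; a few genes chosen after their values were seen are marked or stand as neighbours and tested family members of named genes.

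The main fits did not use the batch, and the replicate block was run as an alternative. The study names replicates as batches, so same-numbered libraries may be pairs. With 9 libraries their deviations correlated at 0.0868 to 0.520, against −0.404 to 0.315 for other pairs, and with 8 at −0.0567 to 0.225 against −0.185 to 0.0643. Alternatives were other pseudocounts, filters, scalings and thresholds, 9 libraries, the replicate block, fits of the compared genotypes only, and leaving out libraries. Sequences were not used here.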

Additional observations from a re-analysis of the deposited data

Results flagged for a closer look

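In the double mutants, replicate 3, which the 8-library comparisons leave out, held 6 of the 44 tested P450 genes at a level that was the highest of the 9 libraries and at least 2-fold above the highest N2 library. *cyp-37B1* stood at 25.3 FPKM there, *cyp-34A9* at 13.9, *cyp-32B1* at 12, *cyp-34A4* at 9.32, *cyp-34A2* at 8.55 and *cyp-33C4* at 3.43 FPKM. In replicates 1 and 2 of the double mutants the same genes were at 8.95 and 7.72, 1.98 and 1.26, 3.29 and 1.997, 6.12 and 4.98, 3.81 and 1.42, and 2.89 and 2.57 FPKM. These are values of 1 library and were not tested as a group difference. The share of all tested entries that stood as high in this library is not given here, so the count is not particular to P450 genes.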

How the results depend on the processing

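The number of P450 genes called changed as follows. Between *daf-1* mutants and N2 it was 2, and 0 with a pseudocount of 1, 1 with a pseudocount of 0.1, with no filter, with median-of-ratios scaling, with 9 libraries, with 9 libraries and the replicate block, or with replicates 1 and 2 only, 4 with quantile normalization and 12 with no minimum fold. Between *daf-1* mutants and the double mutants it was 9, and 5 with a pseudocount of 1, 4 with 9 libraries, 5 with 9 libraries and the block and 19 with no minimum fold. Between the double mutants and N2 it was 6, and 3 with a pseudocount of 1 and 11 with no minimum fold. With 8 libraries and the replicate block the counts were 2, 9 and 5. Over all entries, 993 were called between *daf-1* mutants and N2 in the main fit. Quantile normalization called 892 there and median-of-ratios scaling 1079. For other pseudocounts and filters, no minimum fold, replicates 1 and 2 only and left-out libraries, shares over all entries are not given here. Those counts show only how the P450 calls moved. Leaving out 1 library gave 1 to 2, 4 to 12 and 4 to 7 genes in these comparisons, and 0 to 5 in the batch test, where the main count was 0. The count of 4 came without double mutant replicate 1, which leaves the double mutants with 1 library that is assumed to vary like the others, and the count of 5 without *daf-1* replicate 3. A fit of the compared genotypes alone ended the calls of *cyp-13A10* and *cyp-42A1* between the double mutants and N2 (adjusted p = 0.0664 and 0.0608). The fold changes followed over all alternatives were those of called genes and that of *cyp-33C4* between the double mutants and N2. The last was not called in the main fit. These fold changes kept their side of the thresholds 281 times, lost a call 71 times and gained a call 3 times, and none changed sign. Median-of-ratios scaling moved the median over all entries to 0.11 between *daf-1* mutants and N2 and to 0.13 between *daf-1* mutants and the double mutants, and quantile normalization to −0.09 and −0.08. The share of all calls that were higher in *daf-1* mutants was 86.8% against N2 and 88.7% against the double mutants, and 63.7% and 65.4% under quantile normalization. The cause of these changes was not tested. Most P450 genes lay below 10 FPKM, where the pseudocount weighs most.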
